A study of Mus musculus with 20 samples.

Results

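The gene set described here is the NEDD8 pathway together with the cullin ubiquitin ligases it switches on and the COP9 signalosome that switches them off. It has 35 named members, chosen by symbol, of which 34 were listed among the 19505 genes of the array with 1 probe set each, and Ube2m has no probe set under that symbol in the annotation used here. RNA was taken at 13 weeks from AF and NP tissue, micro-dissected separately, of 5 ank mice (ank/ank, homozygous for the progressive ankylosis allele) and 5 WT littermates, with lumbar and caudal discs of a mouse pooled per tissue by the labels, whereas the study's methods name only caudal ones. The allele is carried in every cell of the animal, so both tissues of ank mice have it, and each group held 2 males and 3 females. A single Clariom S array per mouse and tissue gave 20 arrays, and values are log2 signals.

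In neddylation, the small ubiquitin-like protein NEDD8 is activated by an E1 enzyme, passed to an E2 and joined to a cullin, which opens the cullin RING ligase to charged ubiquitin E2 enzymes. Adaptors such as the elongins and DDB1 connect each cullin to the receptors that pick its substrates. The COP9 signalosome removes NEDD8 again, and CAND1 then allows the receptors to be exchanged. In hypoxic tissues such as the disc, a well known user of this machinery is the elongin and CUL2 ligase of VHL, which marks HIF for destruction in oxygen.

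Arrays have no read depth, and their number limits the precision of these values. The RNA integrity that the study states is given with the processing, and its part in the values was not tested. The background of an array was taken as the 95th percentile of 1427 odorant, vomeronasal and trace amine receptor genes on it, and values over it are called above background. The control AUC, which measures how well 1324 positive control probe sets separate from 5222 negative ones, spanned 0.59 to 0.763 over the AF arrays and 0.71 to 0.789 over the NP arrays, and the arrays held 1782 to 6370 genes above background in the AF and 3972 to 7432 in the NP. The 4 poly-A spike-in probe sets split the arrays into a set A, where they are high, and a set B, where they are low, and each set holds ank and WT arrays in equal number. AF array ank 31 had the lowest AUC and lay among the females in the Y-linked Eif2s3y and Uty although the mouse is labelled male. In Kdm5d, also Y-linked, only 1 of 4 AF males lay above all females, and WT 32, WT 59 and ank 31 did not. In the NP all 4 males lay above all females in each of these genes. The NP arrays held notochordal Krt19 at 17.05 to 17.98 in ank and 17.55 to 18.08 in WT mice, against 9.37 to 16.20 in ank AF and 4.24 to 12.68 in WT AF. Krt8, Krt18, Lgals3 and Cd24a also averaged higher in the NP, and Noto and Shh were above background in a few NP arrays only. Car3, whose protein the study used as an NP marker, did not separate the tissues. Its means were 19.85 in ank AF and 19.88 in WT AF, against 19.81 in each NP group. Foxa1 and Foxa2 were above background in no array, and Car12 in 1 AF array alone. Comp, a marker of the annulus, was above background in all AF arrays and in 1 of 10 NP arrays, whereas the tendon gene Tnmd was above background in only 2 of 10 AF arrays, Scx and Mkx in none of the 20 arrays, and Fmod in all 20, with means of 17.95 in ank AF and 18.20 in WT AF against 18.16 in ank NP and 19.14 in WT NP. AF array WT 33 stood apart, with a mean of 13.75 over 11 skeletal muscle genes and of 14.88 over 6 osteoblast genes. NP array WT 55 had the highest means of its group over the same 6 osteoblast genes (8.45, group median 6.30), 6 macrophage and osteoclast genes (8.64, median 6.54) and 10 annulus and tendon genes (8.84, median 7.44), and their part in the NP differences was not tested. Without it the NP median of the members was −0.15 and no member met the study's thresholds.

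Fewer members were above background in the AF, with a median of 17.5 of 34 per array, than in the NP, with 28. Of all genes, 9.14% to 32.7% were above background in an AF array and 20.4% to 38.1% in an NP array. Members above background numbered 6, 17, 22, 28 and 28 in the AF of ank mice 31, 34, 39, 41 and 48, and 13, 29, 11, 15 and 18 in the AF of WT mice 32, 33, 53, 55 and 59. In the NP of the same mice they numbered 26, 20, 30, 30 and 25 in ank and 30, 23, 31, 27 and 29 in WT. The median deviation of the 34 members from their AF means ran with the AUC, at −0.49 in ank 31 and −0.62 in WT 53, the AF arrays with the lowest AUC of their groups, and at 0.81 in ank 41 and 0.47 in WT 33, those with the highest. The same median over all genes tested was −0.48, −0.64, 0.49 and 0.28 in these 4 arrays. It had the sign of the members in every AF array but ank 34, with 0.24 beside −0.06 for the members. Whether the members followed the array as a whole was not tested.

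**Figure D1:**
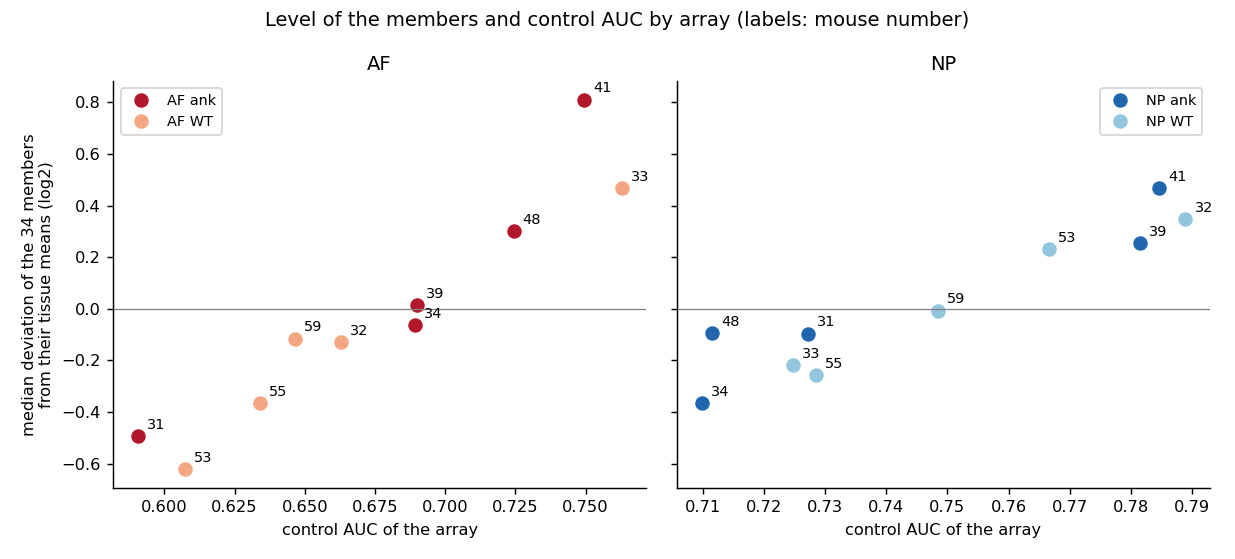
Median deviation of the 34 members from their tissue means (y axis, log2) against the control AUC of each array (x axis) in the AF (left) and NP (right), with 1 point per array and the mouse number beside it. In the AF, ank 31 and WT 53 lie at the lower left, at −0.49 and −0.62, and ank 41 and WT 33 at the upper right, at 0.81 and 0.47.

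Paralogous members differed in whether they could be measured. Of the 5 DCN1-like co-E3 genes, which bring the charged NEDD8 E2 to a cullin, Dcun1d1 and Dcun1d5 were above background in 3 of 10 AF arrays each, and in 9 and 6 of 10 NP arrays. Dcun1d2, Dcun1d3 and Dcun1d4 were above it in 0 of 10 AF arrays and in at most 1 of 10 NP arrays. The same held for Cul7 and Cul9, 2 large cullins of related structure: Cul7 was above background in all 20 arrays and Cul9 in 1. Cops7a, an alternative subunit of the COP9 signalosome, was above background in all 20 arrays, and its counterpart Cops7b in 5. Cand1 was above background in 18 arrays, and Cand2, its muscle-enriched paralog, in 4, all of them NP.

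The first comparison asked which members differ between ank and WT mice in the AF, the fibrous outer ring of the disc. Genes above background in 5 or more AF arrays were tested, which left 4080 genes and 20 of the 34 members. Among the members tested, Eloc alone met the study's thresholds, an unadjusted p below 0.05 with a fold of at least 1.75. Upward 145 genes (3.55%) met them and downward 6 (0.147%). After adjustment over all genes tested, 0 genes passed by limma (smallest adjusted p = 0.947), 154 (3.77%) having an unadjusted p below 0.05, and the methods' t-test gave 0 after Benjamini-Hochberg adjustment as well. Of the 20 members tested, 14 lay higher and 6 lower in ank, with a median difference of 0.19, beside 0.28 over all 4080 genes, of which 72.4% lay higher. None of the 20 members separated ank from WT arrays without overlap, which 12 genes (0.294%) did upward and 2 (0.049%) downward.

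Eloc encodes elongin C, the adaptor that joins CUL2 and CUL5 to their substrate receptors. Eloc measured 7.47, 8.02, 8.28, 9.55 and 9.996 in the AF of ank mice 31, 34, 39, 41 and 48, and 7.28, 7.87, 5.62, 6.90 and 7.75 in the AF of WT mice 32, 33, 53, 55 and 59. The groups overlapped through ank 31, which lay below WT 33 and WT 59, whereas the other 4 ank arrays lay above every WT array. The means were 8.66 ± 1.07 in ank and 7.08 ± 0.90 in WT (mean ± SD, n = 5 each), a difference of 1.58 (SE 0.58; unadjusted p = 0.0188, adjusted p = 0.947, limma). Eloc was above background in 4 ank and in 2 WT arrays, so the WT mean rests partly on values within the background. Within spike-in set A the difference was 0.18 and within set B it was 2.52 (adjusted p = 0.119). Without ank 48 it no longer met the thresholds, and with the control AUC as a term it was 1.25 (unadjusted p = 0.01225, adjusted p = 0.886).

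The other 2 adaptors did not meet the thresholds. Elob, elongin B, which pairs with elongin C, was not tested in the AF, where its means of 7.14 ± 0.80 in ank and 7.47 ± 0.30 in WT (mean ± SD, n = 5 each) rest on 4 arrays above background. Ddb1, the adaptor of the CUL4 ligases, was above background in all 10 arrays and lay higher in ank by 0.72 (SE 0.81), less than its spread of 1.84 in ank and 0.95 in WT. Its lowest array was ank 31 and its highest were ank 41 and ank 48.

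Among NEDD8 and its transfer enzymes no gene tested met the study's thresholds. Nedd8 itself was above background in only 3 of 10 AF arrays and was not tested. Its AF values were 7.88, 7.01, 6.91, 8.76 and 7.35 in ank and 6.75, 7.45, 6.70, 5.81 and 6.19 in WT, with the mice in the order given for Eloc. Both ank 31 and ank 41 lay above every WT array, but ank 31 was below its own array's background of 8.41. With no filter on background Nedd8 met the study's thresholds upward, as did 1.76% of all 19505 genes. The study, which used its own detection filter, names both Nedd8 and Eloc among its upregulated AF genes. Uba3, the catalytic subunit of the E1, measured 8.36, 9.67, 9.66, 10.65 and 9.67 in ank and 9.37, 9.37, 8.65, 8.55 and 8.93 in WT, a difference of 0.63 (SE 0.43; unadjusted p = 0.171). Here ank 31 was the lowest of all 10 arrays and the other 4 ank arrays lay above every WT array. Nae1, the other subunit of the E1, differed by 0.08, and Ube2f, the NEDD8 E2 that serves CUL5, by 0.46. The RING proteins that bind the cullins lay slightly lower, Rbx1 by −0.36 and Rnf7, the RING partner of CUL5, by −0.08.

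Among the cullins 5 of 6 tested lay higher in ank and none met the thresholds. Cul4b, an X-linked cullin of the DDB1 ligases, measured 5.79, 8.37, 8.23, 9.61 and 7.81 in ank and 7.49, 7.73, 6.93, 6.52 and 7.29 in WT, a difference of 0.77 (SE 0.61; unadjusted p = 0.229). All ank arrays but ank 31 lay above every WT array. Cul1, the scaffold of the SKP1 and F-box ligases, measured 8.27, 8.81, 8.13, 10.06 and 9.46 in ank and 8.84, 9.75, 7.34, 7.36 and 8.36 in WT, a difference of 0.61 (SE 0.55; unadjusted p = 0.289). WT 33 lay above all ank arrays but ank 41. The differences were 0.43 for Cul4a, 0.23 for Cul3, 0.06 for Cul5 and −0.40 for Cul7.

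Of the 9 subunits of the COP9 signalosome 5 were tested, and 3 lay higher. Cops2 measured 8.23, 10.22, 10.64, 11.57 and 11.75 in ank and 9.20, 10.55, 8.79, 9.64 and 9.54 in WT, a difference of 0.94 (SE 0.63; unadjusted p = 0.164). Again ank 31 was the lowest array, and the 2 highest were ank 48 and ank 41. Cops5, the metalloprotease subunit that cuts NEDD8 from cullins, measured 6.80, 7.04, 7.35, 9.04 and 8.26 in ank and 7.27, 7.61, 6.26, 6.99 and 7.81 in WT, a difference of 0.51 (SE 0.49; unadjusted p = 0.321), and the groups overlapped broadly. Cops3 differed by 0.12, Cops7a by −0.10 and Cops8 by −0.10. Outside the complex, Cand1 differed by −0.18 and Senp8, a protease that matures NEDD8 and takes it off other proteins, by 0.14.

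**Figure D2:**
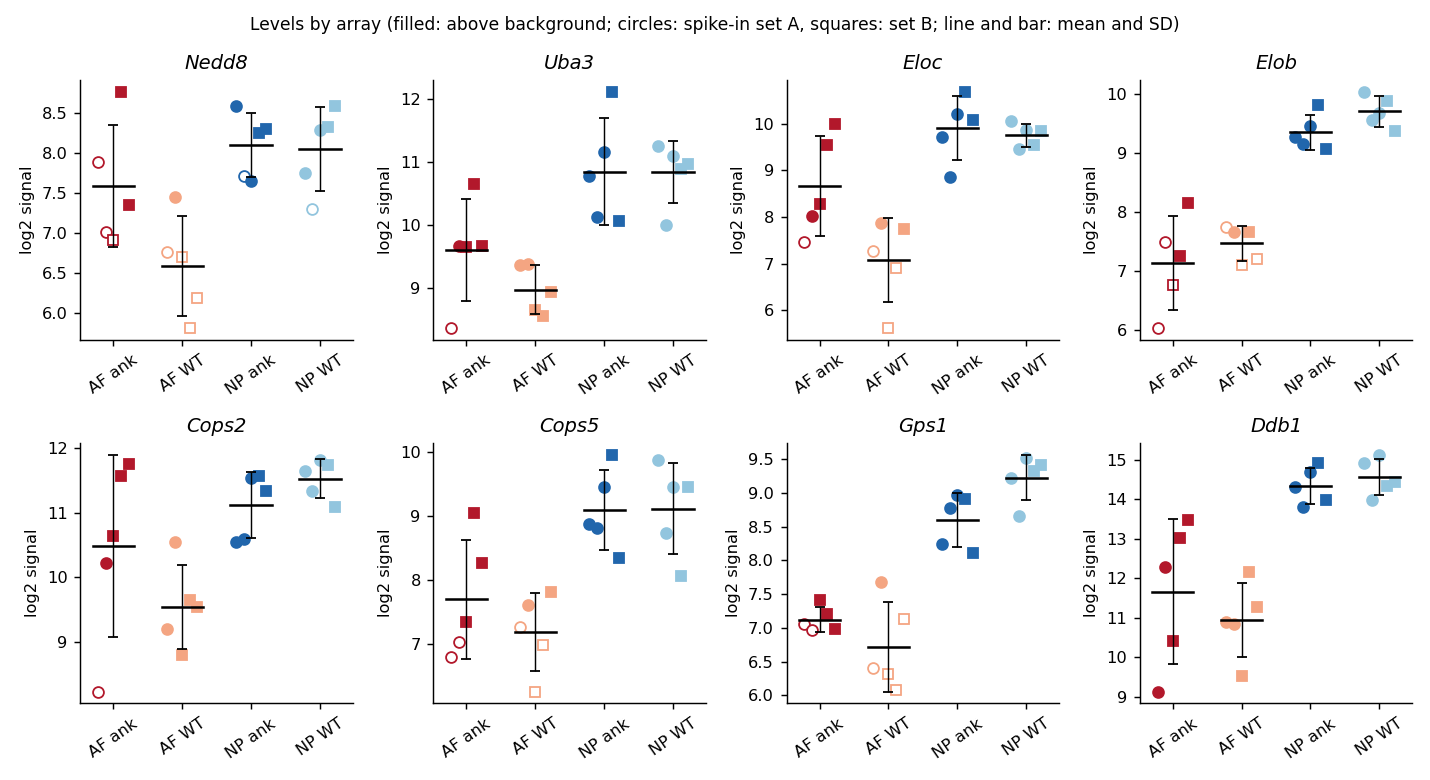
Log2 signal (y axis) of 8 members by array in ank AF, WT AF, ank NP and WT NP (x axis). Filled symbols are above the background of their array, circles belong to spike-in set A and squares to set B, and the lines and bars give mean and SD over 5 arrays. Eloc averaged 8.66 in ank AF and 7.08 in WT AF, with overlapping arrays, and Ddb1, Elob and Gps1 have all AF arrays below all NP arrays.

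The AF direction depended on which arrays were compared. Within spike-in set A, with ank 31 and ank 34 against WT 32 and WT 33, 3 of the 20 members lay higher in ank, with a median of −0.57, beside −0.25 over all genes tested, and none met the thresholds, as 0.613% of all genes did upward. Within set B, with ank 39, 41 and 48 against WT 53, 55 and 59, 17 of 20 lay higher, with a median of 0.9973, beside 0.67 over all genes. In set B, Cops2, Cul1, Cul4b, Eloc, Uba3 and Ube2f met the study's thresholds, as did 930 of all genes upward (22.8%). The WT values of Cul4b were mostly below background, as given above. Only Eloc lay higher in both sets and only Rbx1 lower in both, so 2 of 20 members (10%) kept their sign, beside 30.8% of all genes. In set A the control AUC was 0.59 and 0.689 in ank and 0.663 and 0.763 in WT, so the groups interleaved. In set B it was 0.69, 0.749 and 0.724 in ank, above the 0.607, 0.634 and 0.647 in WT. The AUC is read from the same arrays, and its part in these directions was not tested. With the AUC as a term in the fit, 10 members lay higher and 10 lower, with a median of −0.02, beside 0.14 over all genes, of which 62.5% lay higher. Eloc still met the thresholds, as did 3.43% of all genes upward.

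**Figure D3:**
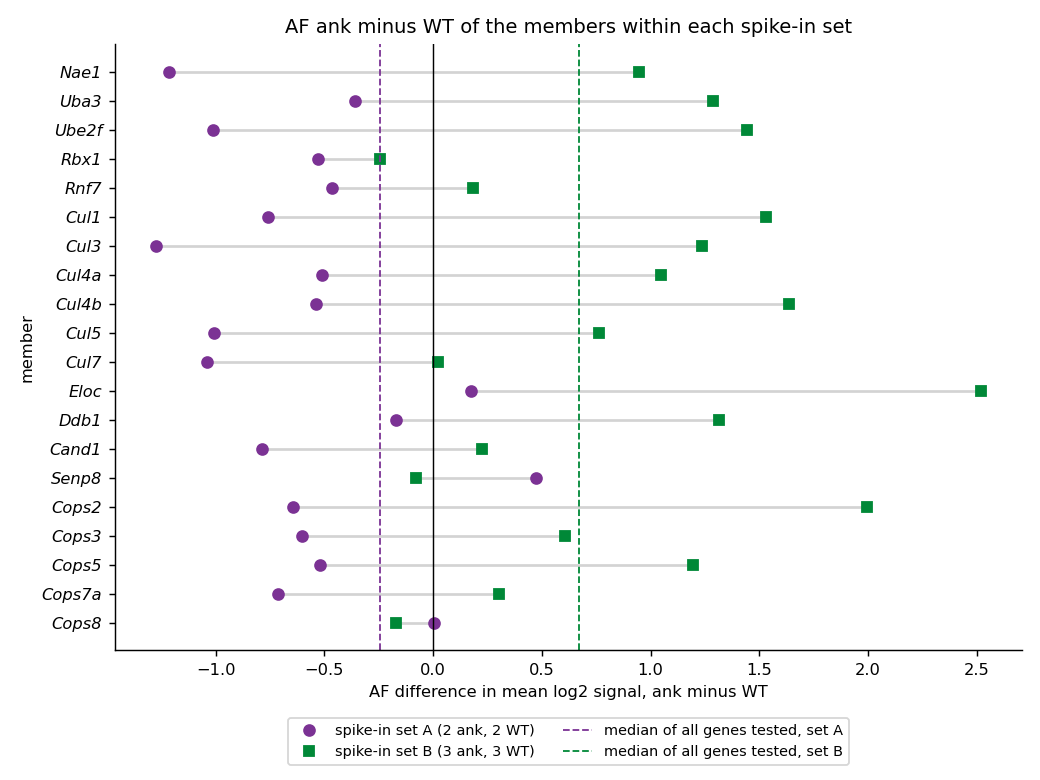
AF difference in mean log2 signal, ank minus WT (x axis), of the 20 members tested (y axis) within spike-in set A (circles, 2 arrays a group) and set B (squares, 3 arrays a group), with dashed lines at the medians of all genes tested, −0.25 and 0.67. The circles lie left of 0 for 17 members and the squares right of 0 for 17.

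Single arrays moved the AF result. Without ank 31, the median of the members was 0.61, beside 0.43 over all genes, and Cops2, Cul4b, Eloc and Uba3 met the thresholds upward, as did 14.8% of all genes. Here too the WT values of Cul4b were mostly below background. Without WT 33, the array with the muscle and bone genes, the median was 0.52, beside 0.41 over all genes, and Eloc alone met them, as did 7.52% of all genes upward. Leaving out ank 41 instead gave a median of 0.05, with 10 members higher and 10 lower. Quantile normalization over the 20 arrays also turned the median, to −0.04 with 9 members higher, beside 0.05 over all genes tested, while Eloc met the thresholds there with 1.64, as did 2.23% of all genes upward. The NP markers averaged 8.57 to 11.02 in ank AF and 7.57 to 10.31 in WT AF over 11 genes, and their part in the AF differences was not tested.

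**Figure D4:**
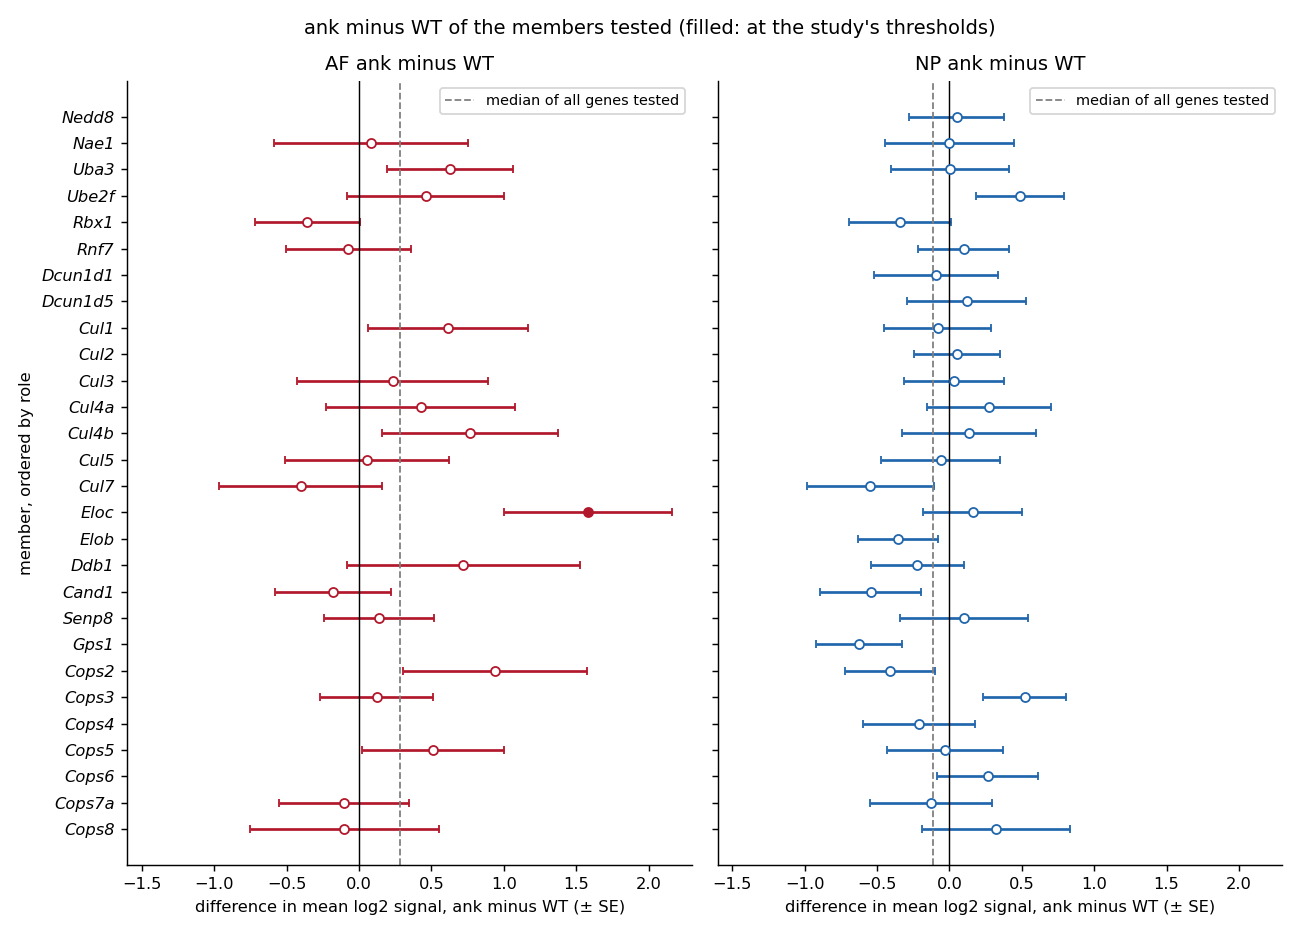
Difference in mean log2 signal, ank minus WT, with its SE (x axis) for the members tested (y axis, by role) in the AF (left, 20 members) and NP (right, 28 members). Only Eloc in the AF, at 1.58, is filled for meeting the study's thresholds, and the dashed lines mark the medians over all genes tested, 0.28 and −0.11.

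The second comparison was the same in the NP, the gel-like core of the disc. There 6340 genes and 28 members were tested, 14 members lay higher and 14 lower in ank, and their median difference was 0.00, beside −0.11 over all genes. No member met the study's thresholds, which 32 genes (0.505%) met upward and 178 (2.81%) downward. After adjustment 0 genes passed by limma and by the methods' t-test, with 269 genes (4.24%) at an unadjusted p below 0.05 by limma. No member separated the groups without overlap, which 13 genes (0.205%) did upward and 35 (0.552%) downward.

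The COP9 signalosome gave the smallest p-values in the NP, in opposite directions. Gps1, its subunit 1, measured 8.25, 8.78, 8.97, 8.91 and 8.10 in ank mice 31, 34, 39, 41 and 48 and 9.22, 8.66, 9.52, 9.33 and 9.41 in WT mice 32, 33, 53, 55 and 59. WT 33 lay among the ank arrays, and the other 4 WT arrays lay above all ank arrays. The difference was −0.63 (SE 0.30; unadjusted p = 0.0534, adjusted p = 0.973), −0.47 within set A and −0.86 within set B. Cops3 measured 9.78, 10.18, 9.53, 10.73 and 10.11 in ank and 9.67, 9.62, 9.503, 9.58 and 9.35 in WT, a difference of 0.52 (SE 0.29; unadjusted p = 0.092). Only ank 39 lay within the WT range, which was narrow. Cops2 measured 10.55, 10.59, 11.54, 11.57 and 11.33 in ank and 11.64, 11.34, 11.81, 11.74 and 11.09 in WT, a difference of −0.41 (SE 0.31; unadjusted p = 0.209) that was −0.71 within set A and 0.04 within set B. Both ank 31 and ank 34, of set A, lay below every WT array. The other 5 subunits tested differed by −0.21 to 0.32.

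Outside the COP9 signalosome Ube2f, Cand1 and Elob had the smallest p-values. Ube2f measured 10.13, 10.03, 10.58, 10.54 and 10.93 in ank and 10.02, 9.46, 9.98, 9.70 and 10.61 in WT, a difference of 0.49 (SE 0.31; unadjusted p = 0.131). Ank 48 was its highest array and WT 33 its lowest. Cand1, which prepares cullins for a new receptor, measured 9.49, 8.56, 9.18, 9.03 and 8.09 in ank and 9.75, 8.61, 9.20, 9.69 and 9.81 in WT, a difference of −0.54 (SE 0.35; unadjusted p = 0.141). Here ank 48 was the lowest array, and 3 WT arrays lay above all ank arrays. Elob measured 9.28, 9.16, 9.47, 9.82 and 9.07 in ank and 10.05, 9.56, 9.69, 9.88 and 9.39 in WT, a difference of −0.35 (SE 0.27; unadjusted p = 0.215), with overlapping groups. Nedd8 averaged 8.10 ± 0.40 in ank and 8.05 ± 0.52 in WT, Eloc 9.91 ± 0.68 in ank and 9.75 ± 0.25 in WT, and Cops5 9.08 ± 0.62 in ank and 9.11 ± 0.71 in WT (mean ± SD, n = 5 each). These 3 differed by less than the spread within either group.

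In the NP too the spike-in sets differed, though less than in the AF. Within set A 7 of 28 members lay higher in ank, with a median of −0.27, and within set B 20 of 28, with a median of 0.29, beside −0.21 and 0.01 over all genes tested. Quantile normalization left 19 members higher, with a median of 0.08, beside −0.03 over all genes. Dcun1d4, which was not tested, averaged 5.66 ± 0.60 in ank and 6.85 ± 0.78 in WT (mean ± SD, n = 5 each), with 1 array above background, so no fold is given. With no filter it met the thresholds downward, as did 1.29% of all 19505 genes.

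Whether the ank difference of a member differs between the tissues was tested on all 20 arrays with 5095 genes and 26 members. No gene passed by limma after adjustment, and 240 (4.71%) met the study's thresholds. Gps1 and Eloc were the members among them. Gps1 measured 7.06, 6.96, 7.41, 7.21 and 6.98 in ank AF and 6.40, 7.68, 6.32, 6.08 and 7.13 in WT AF, where 4 of 10 arrays were above background, and its AF difference of 0.40 exceeded its NP difference of −0.63 by 1.03 (SE 0.45; unadjusted p = 0.0332, adjusted p = 0.867). The WT AF values of Gps1 spanned those of all ank AF arrays. Eloc differed by 1.42 more in the AF than in the NP (SE 0.68; unadjusted p = 0.0496, adjusted p = 0.867), where its values were 9.72, 8.86, 10.20, 10.69 and 10.09 in ank and 10.05, 9.45, 9.86, 9.54 and 9.84 in WT. For Cops2 the contrast was 1.35 (SE 0.71; unadjusted p = 0.0723) and for Nedd8 0.95 (SE 0.55; unadjusted p = 0.0979), whose NP values were 8.58, 7.71, 7.65, 8.24 and 8.30 in ank and 7.74, 7.29, 8.28, 8.32 and 8.59 in WT. Neither Gps1 nor Nedd8 was tested in the AF, and both contrasts rest on AF values mostly below background. The 26 members had a median contrast of 0.19, beside 0.40 over all genes tested. With the mouse as a block, Cops2 met the thresholds in place of Gps1.

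The largest differences lay between the tissues. The AF arrays had lower medians over the gene probe sets, 5.71 to 5.98, than the NP arrays, 6.09 to 6.41, and whether both tissues were normalized in 1 run is not given in the sources used here. Of the 26 members tested on both tissues, 24 were lower in the AF after adjustment, as were 3847 of 5095 genes (75.5%), while 105 genes (2.06%) were higher, 77.6% passing in either direction. Of these 26 members, Cops4, Cops6, Dcun1d1, Elob, Gps1 and Nedd8 were above background in at most 4 of 10 AF arrays and passed the filter through the NP, where they are high. Among the 20 members above background in at least 5 arrays of each tissue 18 were lower, as were 2822 of 3905 such genes (72.3%). With no filter 29 of the 34 members were lower, and 42.5% of all 19505 genes. The median of the members was −1.53, beside −1.31 over all genes tested. The exceptions were Cops8, a small subunit of the COP9 signalosome, with −0.91 (adjusted p = 0.0613), and the NEDD8 protease Senp8 with 0.25 (adjusted p = 0.445). In a sample of tissue, fewer cells of a type and less RNA per cell cannot be told apart.

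Elob, Gps1, Cops3 and Ddb1 had the smallest p-values and were the members whose AF arrays all lay below all NP arrays, as for 740 genes (14.5%). Elob measured 6.03, 7.50, 6.76, 7.25 and 8.15 in ank AF and 7.74, 7.67, 7.09, 7.65 and 7.21 in WT AF, against 9.07 to 9.82 in ank NP and 9.39 to 10.05 in WT NP. Its highest AF array, ank 48, lay below its lowest NP array, but Elob was above background in only 4 of 10 AF arrays, so the AF values partly lie within the background. AF minus NP was −2.23 (SE 0.24; adjusted p = 2.22e-07). Gps1, whose values are given above and which was likewise above background in only 4 of 10 AF arrays, differed by −1.99 (SE 0.225; adjusted p = 4.63e-07). Cops3 measured 7.22, 8.50, 8.18, 8.81 and 7.87 in ank AF and 8.45, 8.47, 7.64, 7.67 and 7.73 in WT AF, and AF minus NP was −1.75 (SE 0.23; adjusted p = 1.95e-06). Its highest AF array, ank 41, lay below its lowest NP array, WT 59. Ddb1 had the largest mean difference of the 4, with 9.14, 12.28, 10.41, 13.02 and 13.48 in ank AF and 10.90, 10.86, 9.53, 12.15 and 11.28 in WT AF against 14.31, 13.81, 14.69, 14.90 and 13.97 in ank NP and 14.91, 13.99, 15.12, 14.34 and 14.44 in WT NP. AF minus NP was −3.14 (SE 0.45; adjusted p = 5.03e-06), and the AF arrays spread far more than the NP arrays.

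By role, AF minus NP had a median of −2.23 for the 3 adaptors and −1.61 for the 6 cullins tested, all lower. It was −1.57 for the 8 subunits of the COP9 signalosome tested, of which 7 passed. These stand beside the median over all genes given above, with 75.5% of all genes tested passing as lower. For Nedd8 AF minus NP was −0.99 (adjusted p = 0.00281, limma), with 2 ank and 1 WT AF arrays above background. Nedd8, Elob, whose value is the adaptor median, and the COP9 subunits Gps1, Cops4 and Cops6 passed the filter through the NP, where they are high. In ank mice alone Nedd8 differed by −0.51 and in WT mice alone by −1.47, and the contrast between them is the 0.95 given above, which did not pass. The members had a median of −1.305 in ank mice and −1.65 in WT mice, beside −1.10 and −1.52 over all genes.

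How far the AF lay below the NP depended on the scaling. With each array centred on its median, the members had a median of −1.14 and 20 were called, beside −0.93 over all genes and 56.9% of them called lower. After quantile normalization over the 20 arrays, Cops3, Ddb1, Elob, Eloc, Gps1 and Rbx1 were called lower and Senp8 higher, with a member median of −0.35, beside −0.19 over all genes, 23.7% of them lower and 13.4% higher. In that scaling 5 of the 26 members, Senp8 and Cops2 (0.14) among them, lay higher in the AF. Senp8 thus had 0.25 as deposited and 1.30 (adjusted p = 0.00427) after quantile normalization. Elob had −1.22 and Ddb1 −1.56 after quantile normalization, Gps1 −1.11 and Cops3 −0.60. With the control AUC as a term, 12 of 26 members were called lower, with a median of −0.74, beside 51.4% of all genes and a median of −0.84 over them. Elob, Gps1, Cops3 and Ddb1 were among the 12.

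**Figure D5:**
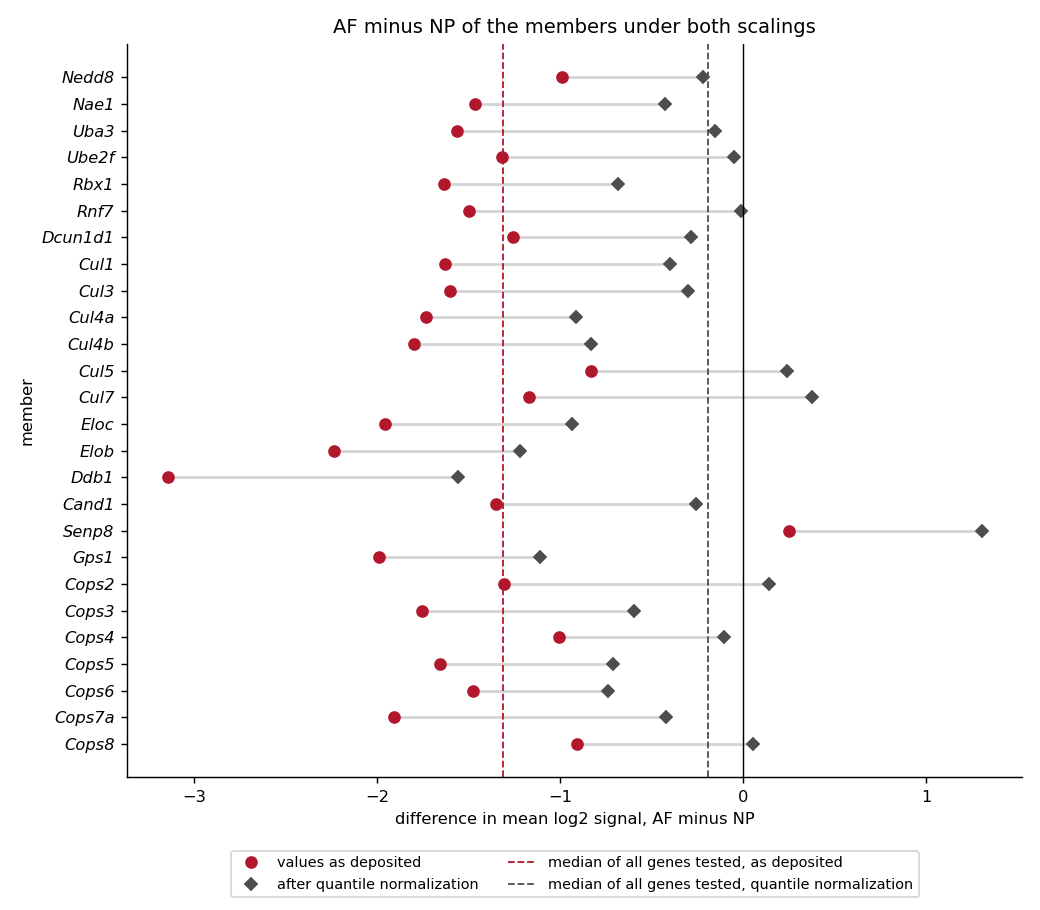
Difference in mean log2 signal, AF minus NP (x axis), of the 26 members tested (y axis) with the values as deposited (circles) and after quantile normalization over the 20 arrays (diamonds), with dashed lines at the medians of all genes tested, −1.31 and −0.19. Every circle but that of Senp8 lies left of 0, and the diamonds of Ddb1, Elob and Gps1 remain below −1.

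The promoters of the members were read from RefSeq (GRCm38.p6), taking the 250 bases before each gene's start, with 31 of the 35 members matched by symbol in 44 windows. The windows were rich in CG, with a median of 19 CG pairs, beside 6 over all 32851 windows. The letters TATAAA, searched on both strands as were all motifs, were found in 1 of 31 member genes (Cul5), beside 14.3% of all 27025 genes. CCGGAAG, a core bound by ETS factors, was found in 10 of 31 member genes (32.3%), beside 7.83% of all genes, and GGGCGGGG, a core bound by SP factors, in 14 of 31 (45.2%), beside 18.0%. The NRF1 core motif was found in 2 of 31 member genes (6.45%), beside 4.23% of all genes. These shares were not matched for CG content or for windows per gene. The 31 member genes had 44 windows and the 27025 genes 32851. The 10 genes with CCGGAAG were Cops2, Cops3, Cops7a, Cops8, Cul7, Dcun1d3, Elob, Gps1, Nedd8 and Ube2f. They are described by their letters alone, and the motifs were chosen after the windows were seen.

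Shown here are the windows of the modifier and of 3 of the 4 members with separate tissues, because each holds CCGGAAG or its reverse complement CTTCCGG, printed in capitals. Ddb1, the remaining member with separate tissues, holds neither and is not shown. They run 5′ to 3′ on the strand of the gene, at chr14:55671881-55672130 (minus strand) for Nedd8, chr17:23829110-23829359 (minus) for Elob, chr11:120784250-120784499 (plus) for Gps1 and chr11:59839768-59840017 (minus) for Cops3.
Nedd8: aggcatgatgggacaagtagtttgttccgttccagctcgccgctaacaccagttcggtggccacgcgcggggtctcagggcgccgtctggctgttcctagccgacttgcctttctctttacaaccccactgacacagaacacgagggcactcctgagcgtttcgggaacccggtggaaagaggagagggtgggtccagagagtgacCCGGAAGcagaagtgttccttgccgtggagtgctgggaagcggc
Elob: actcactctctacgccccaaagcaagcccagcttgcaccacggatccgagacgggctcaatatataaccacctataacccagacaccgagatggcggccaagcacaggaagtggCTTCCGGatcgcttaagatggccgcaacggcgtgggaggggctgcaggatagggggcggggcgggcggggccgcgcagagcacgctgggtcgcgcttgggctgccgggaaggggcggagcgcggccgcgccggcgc
Gps1: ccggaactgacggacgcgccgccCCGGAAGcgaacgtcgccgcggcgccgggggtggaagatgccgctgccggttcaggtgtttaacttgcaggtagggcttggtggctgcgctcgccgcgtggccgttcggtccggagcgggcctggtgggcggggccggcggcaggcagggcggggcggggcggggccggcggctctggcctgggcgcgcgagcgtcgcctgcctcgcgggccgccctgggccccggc
Cops3: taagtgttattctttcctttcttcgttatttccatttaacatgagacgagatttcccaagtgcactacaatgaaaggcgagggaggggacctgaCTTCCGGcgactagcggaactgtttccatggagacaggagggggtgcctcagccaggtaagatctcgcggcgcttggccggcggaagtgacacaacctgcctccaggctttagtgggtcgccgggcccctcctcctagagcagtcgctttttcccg
Counted from the gene's start, the capitals begin at −44 in Nedd8, −136 in Elob, −227 in Gps1 and −156 in Cops3, so that the position is not shared. Nedd8 differed by −0.99 between the tissues and the other 3 by −1.75 to −2.23, all 4 with the letters in the window, as had Cops8, which was not called. Ddb1, with −3.14, had the letters in no window, and a link between the letters and the tissue differences was not tested.

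Genes that work with the members were followed in 8 lists of 160 genes, 145 of them listed. In the AF 57 were tested, 46 lay higher in ank and 11 lower, with a median of 0.40, and 2 met the study's thresholds, beside 3.70% of all genes tested in either direction. These were Spsb1, a SOCS box receptor of the CUL5 ligase, and Crbn, a DDB1 receptor and the target of thalidomide. Spsb1 averaged 8.76 ± 0.68 in ank and 7.65 ± 0.66 in WT (mean ± SD, n = 5 each), a difference of 1.11 (SE 0.44; unadjusted p = 0.0284, adjusted p = 0.947). Crbn averaged 9.06 ± 0.62 in ank and 8.17 ± 0.47 in WT (mean ± SD, n = 5 each), a difference of 0.89 (SE 0.40; unadjusted p = 0.0446, adjusted p = 0.947).

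The values by list stand beside 72.4% of all genes tested higher and a median of 0.28. All 9 F-box and SKP1 genes tested lay higher in the AF of ank mice, with a median of 0.43, and all 7 ubiquitin E2 and RBR partners of the cullins, with a median of 0.81, led by Ube2d3 with 1.055, and no gene of either list met the thresholds. The medians were 0.31 for 9 elongin receptors, 0.49 for 9 BTB receptors of CUL3, 0.43 for 11 DDB1 receptors and 0.65 for 4 further regulators, among them Mdm2, the p53 ubiquitin ligase, with 1.31. The 8 genes tested of the NRF2 response, whose factor is a substrate of the KEAP1 and CUL3 ligase, were 4 higher and 4 lower, with a median of 0.00. Of ubiquitin and its E1 enzymes only Uba6 was listed, and it was not tested in the AF.

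In the NP 92 genes of these lists were tested, 28 lay higher and 64 lower in ank, beside 62.2% of all genes tested lower, with a median of −0.14, beside −0.11, and none met the thresholds, which 3.31% of all genes tested did. Pcmtd1, an elongin-binding protein, had the smallest p, with −0.77 (SE 0.30; unadjusted p = 0.0239, adjusted p = 0.973). Of the DDB1 receptors 15 of 17 lay lower, with a median of −0.18, and of the F-box and SKP1 genes 13 of 15, with a median of −0.23. The NRF2 genes had a median of 0.03, with Me1, malic enzyme, at −0.83 and Hmox1, heme oxygenase, at 0.57. Between the tissues, 77 of 79 genes tested lay lower in the AF and 2 higher, with a median of −1.52, beside −1.31 over all genes. After adjustment by limma 69 passed as lower and none as higher, beside 75.5% of all genes passing as lower.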

How the data were processed

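The authors hybridised total RNA to Mouse Clariom S arrays and made CHP files with sst-rma in the Transcriptome Analysis Console. By their methods the RNA had an integrity number (RIN) of around 5. The deposited values are on a log2 scale and cover 28846 probe sets of each array. Of 22206 gene probe sets, 19572 had 1 symbol in the platform annotation and 2634 had no name here. For 55 genes with several probe sets the one with the highest mean was kept. The study's detection filter was replaced by the receptor background given above (genes above it in at least 5 of 10 or 10 of 20 arrays were fitted), and Ank itself is not analysed here.

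Groups were compared with limma 3.58.1 (lmFit and eBayes, R 4.3.3) with Benjamini-Hochberg adjustment over all genes tested. The procedure was tested on simulated data with independent noise per gene and array. That simulation held no shifts of whole arrays, so it does not cover them. Statistics are given, per ank comparison, for up to 6 members tested with the smallest p and for members at the study's thresholds, and for the tissue contrasts for up to 4, with values per array for these and for Nedd8, Eloc and Cops5; of each further list, up to 3 genes per tissue. Members and lists were chosen with earlier results of these data known, and the spike-in sets and the motifs were read from the data. Mouse numbers pair AF and NP arrays of the same animal by the titles (median correlation of deviations 0.181 within mice and −0.01 between mice). Within a tissue each array is a separate mouse, and no column was left unmapped. Other scalings, background levels, filters, covariates and blocks, and leaving out single arrays, were tried as alternatives.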

Additional observations from a re-analysis of the deposited data

Results flagged for a closer look

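In 5 of the 136 sets of 5 arrays (34 members in 4 groups, 3.68%), 1 array lay far from the rest by Dixon's criterion, which chance does in about 1 set in 20. Dcun1d5 reached 9.37 in NP array ank 41, with the other 4 ank NP arrays at 7.42 to 7.90. Cul4b was 8.18 in NP array ank 48, with the others at 9.54 to 10.002. The other 3 values lay below the background of their arrays, namely Cul9 at 4.99 and Cand2 at 4.16 in AF array WT 53 (others 5.35 to 5.44 and 5.14 to 5.35), and Cand1 at 6.71 in AF array WT 59 (others 8.06 to 8.35).

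The ank difference of 2 members differed between the tissues at an unadjusted p below 0.05 and not after adjustment by limma. The AF difference exceeded the NP difference by 1.03 for Gps1 (unadjusted p = 0.0332, adjusted p = 0.867) and by 1.42 for Eloc (unadjusted p = 0.0496, adjusted p = 0.867).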

How the results depend on the processing

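AF ank minus WT. Of the members 2 met the study's thresholds with no filter or the antigenomic background (Eloc and Nedd8), 0 of the 5 above background in all 10 arrays, 0 in set A of the spike-ins and 6 in set B. For all genes these counts were 488, 438, 53, 51 and 974, and 258 with all 20 arrays in one fit. The member median was −0.57 in set A and 0.9973 in set B, and Cops2 (−0.65), Uba3 (−0.36), Cul4b (−0.54), Cul1 (−0.76) and Cops5 (−0.52) turned negative in set A. Quantile normalization gave 91 genes higher and 48 lower, beside 145 and 6. Leaving out single arrays gave 0 to 4 members (none without ank 48, 4 without ank 31), 64 to 619 genes and medians of 0.05 to 0.61.

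NP ank minus WT. With no filter or the antigenomic background 1 member met the thresholds (Dcun1d4), and the counts of genes were 413 and 379. Genes numbered 107 above background in all 10 arrays, 134 in the fit of all 20 arrays and 132 by the t-test. Quantile normalization gave 51 higher and 101 lower, beside 32 and 178. Cops2 was 0.037 in set B. Leaving out single arrays gave 0 members, 129 to 361 genes and medians of −0.21 to 0.09.

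AF minus NP. Quantile normalization left 7 members and 1893 genes, no filter 9185 genes and the control AUC as a term 12 members and 2759 genes. Above background in all 20 arrays, 4 members and 1171 genes were tested, of which 4 members and 856 genes passed. Medians were −1.14 centred, −0.35 after quantile normalization and −0.74 with the AUC, beside −0.84 over all genes. With the mouse as a replicate block 25 members passed, Cops8 being added, and the block changed no other member's call. Leaving out single mice gave 23 to 25 members, 3730 to 4043 genes and medians of −1.67 to −1.41.

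Difference of the ank effect. Centring left 1 member at the thresholds, above background in all 20 arrays 0 of 4 tested and the AUC 1, and genes numbered 813 with no filter and 61 above background in all 20 arrays. With the replicate block 2 members met them, Cops2 and Eloc. Leaving out single mice gave 0 to 4 members (none without 32, 48, 53 or 55, 4 without 33), 80 to 603 genes and medians of 0.057 to 0.62. The AUC and spike-in terms across tissues and the filter on all 20 arrays were chosen after seeing the data. The cause of these shifts was not tested. Low signal over background limits the AF most, where 14 of 34 members could not be tested, and 4080 of all 19505 genes could.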
